A study of Mus musculus with 24 samples.

Results

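Mitosis and cytokinesis genes are described here in T11, a claudin-low cell line that was derived from a Trp53-null tumour of the mouse mammary gland and that expresses luciferase. The 51 genes were taken from a list of named members, all 51 of which have a row among the 23235 of the deposited table and passed the filter on low values used below. That list was chosen with earlier results of these data known, so its counts and medians are descriptions. All groups were grown for 3 days in RPMI with 1% serum. They then received PBS for 3 h or 6 h, or for the same times a peptide at 5 µM: Omomyc, FPP-1746, or FPP-1746-Omomyc. Each of these 8 groups has 3 biological replicates, 24 samples in all, but the table holds 1 averaged column per group, in FPKM (fragments counted on a gene, scaled to its transcript length and to the library's depth, as the authors made them). No replicate spread can be seen, so there is no replicate check, no statistical test, and no SD or p-value. The samples titled as 6 h of the fusion carry a treatment tag of 3 h, and their titles, which match the column name, were followed.

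Omomyc is a designed variant of the MYC leucine zipper region that pairs with MYC and with MAX and occupies E-boxes without activating them. FPP-1746 is a peptide that enters cells, and its joined form with Omomyc, FPP-1746-Omomyc, is called the fusion below. The design sets the fusion beside each of its parts at the same dose and time. Mitotic genes are transcribed late in the cell cycle. Their promoters are held silent in resting and G1 cells by the DREAM complex. In G2 they are switched on by the MuvB core with B-MYB and FOXM1. These complexes meet DNA largely through the CHR element, and CCAAT boxes often lie beside it. Products of mitotic genes condense chromosomes, build the spindle, hold anaphase until every kinetochore is attached, and divide the cell. They serve in mammary tumours as the usual markers of proliferation.

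In the fusion, transcripts of mitosis and cytokinesis genes stood below PBS almost throughout. All 51 were below PBS at 3 h, against 49.5% of the 10262 genes that averaged at least 1 FPKM over the columns (called tested genes here, as those to which a fold rule was applied), and 47 were below it at 6 h, against 51.7%. The median log2 ratio of FPKM + 1 over PBS was -0.59 at 3 h (a fold of 0.664) and -0.55 at 6 h (0.682), while the median of all tested genes was 0.0034 and -0.026. A member was called lower where FPKM + 1 differed at least 2-fold. By that rule 6 members fell at 3 h, Cenpf, Plk1, Mki67, Ttk, Ccna2 and Hmmr, against 4.42% of tested genes. At 6 h 2 fell, Birc5 and Kif20a, a count near the 3.34% of tested genes. The calls of Cenpf, Mki67, Ttk and Hmmr at 3 h ended with a pseudocount of 5 in place of 1, at -0.74, -0.85, -0.86 and -0.81. No member was called higher at 3 h, where 6.13% of tested genes were, or at 6 h, where 7.13% were. At a 1.5-fold rule 26 members were lower at 3 h, beside 14.5% of tested genes, and 22 at 6 h, beside 15.2%. None was higher by that rule, beside 15.7% of tested genes at 3 h and 17.4% at 6 h. In RNA from whole cultures, fewer cells in mitosis and less mRNA per cell cannot be told apart.

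The columns without the fusion are the only spread that the table offers. At 3 h PBS, Omomyc and FPP-1746 lay within a median factor of 1.04 of each other over the members, and the widest range was 1.13-fold, for Mki67. At 6 h these values were 1.08 and 1.18, the latter for Cenpf. The fusion lay below all 3 of these columns in 50 members at 3 h, where 45.9% of all tested genes did so, and in 46 at 6 h, where 47.3% did. It lay below them at both times in 45 members, beside 27.1% of tested genes. Ccnb2 at 3 h was the exception at that time, inside the range of the others. At 6 h Aurka and Kif18b stood above all 3 other columns and Aspm, Prc1 and Anln inside their range. Above-range values were found for 46% of tested genes at 3 h and for 44% at 6 h.

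**Figure D1:**
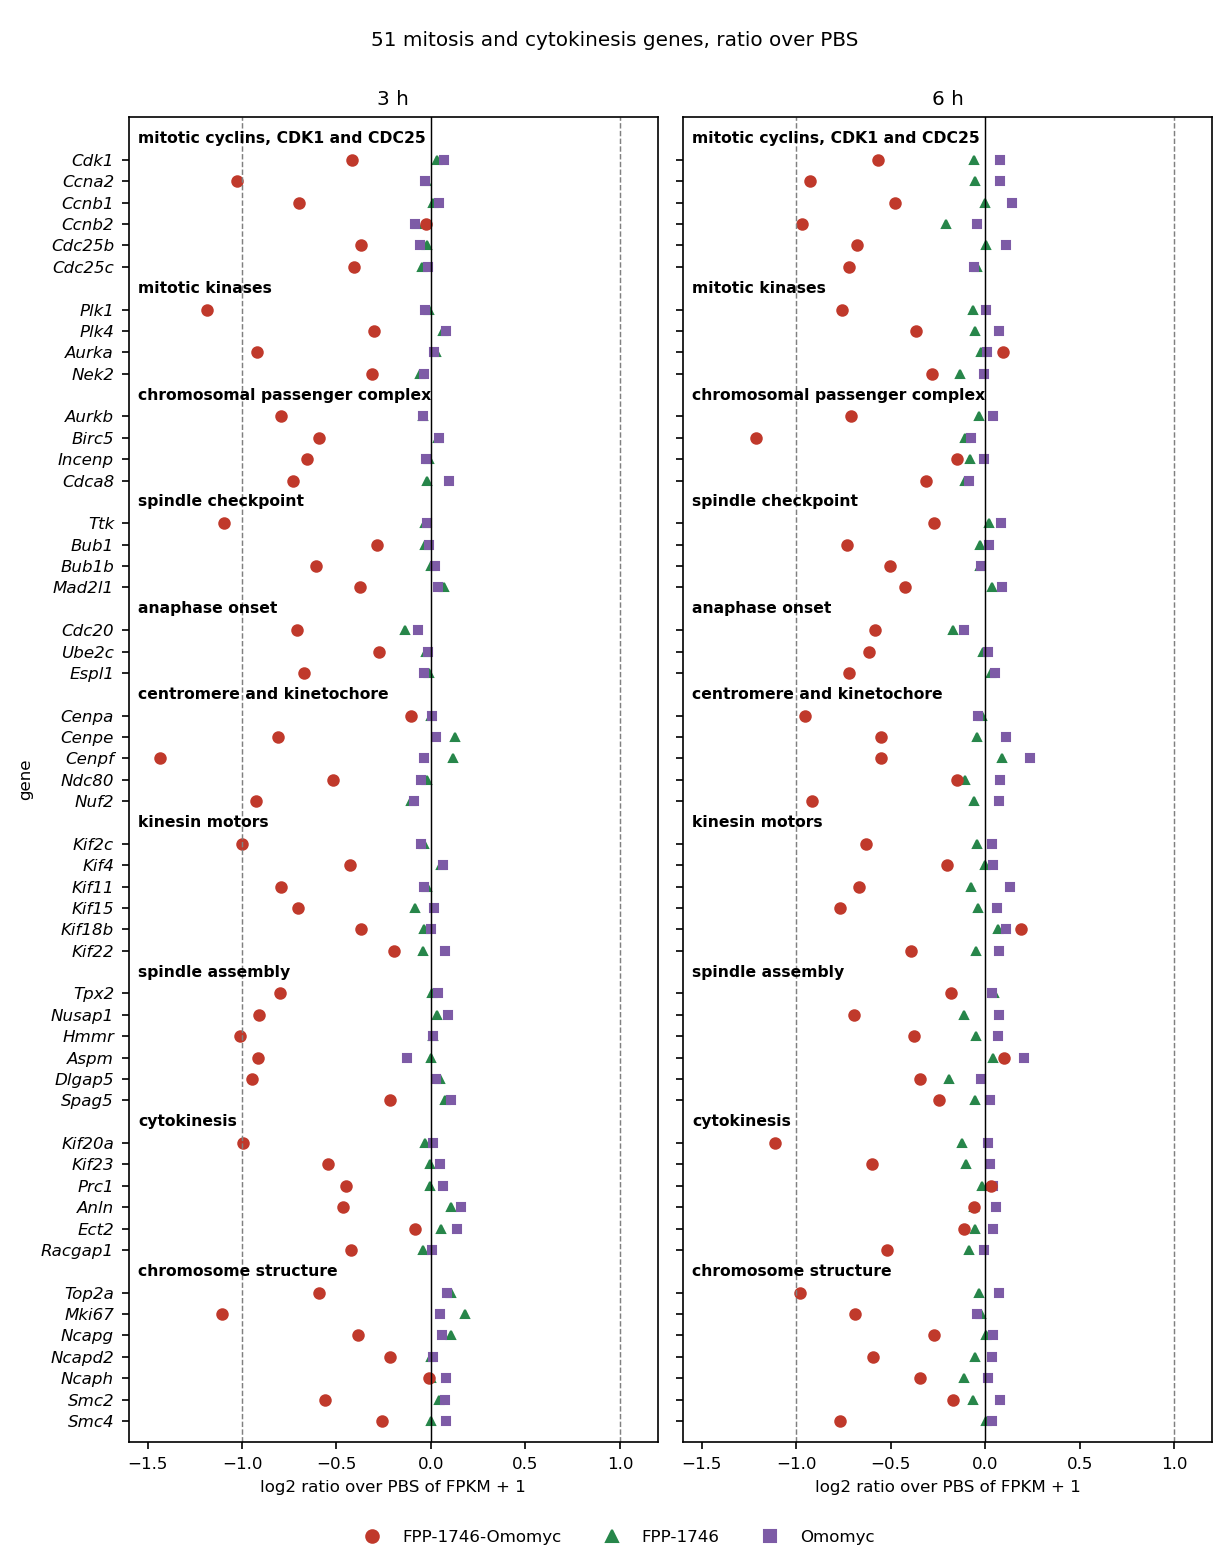
Log2 ratio over PBS of FPKM + 1 for each of the 51 genes, by role, at 3 h (left) and 6 h (right), for the fusion (red circles), FPP-1746 (green triangles) and Omomyc (purple squares); dashed lines mark 2-fold, and 1 averaged column per group allows no error bars. The red circles lie left of 0 for all 51 genes at 3 h and for 47 at 6 h, while both parts alone stay within 0.24 of 0.

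The fixed promoter motifs were looked for as a description of what the members share. RefSeq promoter windows of the build GRCm38.p6, each of 300 bases from 250 before the start to 50 after it, matched 43 of the 51 members by symbol, with 45 windows. The CHR letters TTTGAA, on either strand, were present in 34 of the 45 windows, or 75.6%, against 11.5% of the 9395 windows of tested genes and 17.9% of all 32851 windows. CCAAT was present in 35, or 77.8%, against 38.6% and 37.4%. Both occurred in 66.7% of member windows and in 4.77% of windows of tested genes. TTTGAA had 44 matches with a median position of -10.0 from the start, and 32 of them lay within 50 bases of it. Ect2 and Prc1 have overlapping windows, and a site in both windows of a gene was counted in each. The E-box CACGTG, the preferred site of MYC and MAX, was in 3 member windows (Anln, Espl1 and Ttk), or 6.67%, against 10.6% of windows of tested genes. The E2F letters TTGGCGC were in 17.8% and 4.53%, and TTCCCGC in 4.44% and 8.91%. Of the CHR variants, TTCGAA was in 8.89% against 2.1% and TTTAAA in 24.4% against 8.82%. Both strands were searched for each motif, and each was counted by itself.

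Windows of 6 members are shown, chosen after their values were seen, because they stand for the time patterns described below: Plk1, Cenpf and Ttk fell at 3 h, Aurka was low at 3 h and back at the PBS level at 6 h, Ccnb2 was low at 6 h only, and Nuf2 was about as low at both times. They run 5′ to 3′ on the strand of the gene, and capitals mark TTTGAA and CCAAT or their reverse complements.
Plk1, chr7:122159185-122159484, plus strand: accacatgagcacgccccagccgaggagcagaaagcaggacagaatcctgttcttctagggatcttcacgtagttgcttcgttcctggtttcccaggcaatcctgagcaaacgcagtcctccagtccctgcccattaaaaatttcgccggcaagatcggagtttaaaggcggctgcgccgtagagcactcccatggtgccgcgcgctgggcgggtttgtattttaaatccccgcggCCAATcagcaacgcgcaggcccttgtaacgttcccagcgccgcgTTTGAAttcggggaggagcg
Cenpf, chr1:189688037-189688336, minus strand: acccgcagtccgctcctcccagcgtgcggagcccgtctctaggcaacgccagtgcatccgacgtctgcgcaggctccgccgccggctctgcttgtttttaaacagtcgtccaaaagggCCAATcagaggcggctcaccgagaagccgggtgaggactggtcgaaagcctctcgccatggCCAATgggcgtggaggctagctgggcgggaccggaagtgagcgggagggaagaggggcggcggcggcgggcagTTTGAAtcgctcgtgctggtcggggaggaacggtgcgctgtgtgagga
Ttk, chr9:83834439-83834738, plus strand: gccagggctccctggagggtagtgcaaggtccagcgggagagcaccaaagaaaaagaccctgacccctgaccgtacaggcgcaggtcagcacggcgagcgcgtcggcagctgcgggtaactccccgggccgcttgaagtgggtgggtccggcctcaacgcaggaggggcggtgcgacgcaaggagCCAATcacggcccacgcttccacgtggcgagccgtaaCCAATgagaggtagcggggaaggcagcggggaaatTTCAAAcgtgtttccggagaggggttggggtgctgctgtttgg
Aurka, chr2:172370521-172370820, minus strand: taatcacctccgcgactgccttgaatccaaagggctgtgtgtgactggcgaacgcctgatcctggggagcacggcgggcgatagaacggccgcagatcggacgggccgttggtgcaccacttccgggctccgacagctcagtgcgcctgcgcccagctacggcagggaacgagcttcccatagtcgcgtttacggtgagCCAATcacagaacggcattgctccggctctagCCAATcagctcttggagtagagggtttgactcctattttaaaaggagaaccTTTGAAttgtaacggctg
Ccnb2, chr9:70421505-70421804, minus strand: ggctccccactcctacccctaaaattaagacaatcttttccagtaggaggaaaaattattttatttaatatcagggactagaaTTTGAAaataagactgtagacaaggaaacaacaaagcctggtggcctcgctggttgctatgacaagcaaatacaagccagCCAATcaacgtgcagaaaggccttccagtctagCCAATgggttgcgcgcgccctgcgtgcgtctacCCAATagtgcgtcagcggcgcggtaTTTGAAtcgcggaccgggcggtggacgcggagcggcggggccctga
Nuf2, chr1:169531415-169531714, minus strand: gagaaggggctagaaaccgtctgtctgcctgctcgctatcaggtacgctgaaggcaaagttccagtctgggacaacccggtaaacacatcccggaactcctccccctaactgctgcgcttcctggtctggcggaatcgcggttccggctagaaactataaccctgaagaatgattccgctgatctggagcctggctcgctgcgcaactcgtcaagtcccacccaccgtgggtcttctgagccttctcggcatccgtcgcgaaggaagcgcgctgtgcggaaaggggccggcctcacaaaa
TTTGAA lies at 30 bases from the start in Plk1, 2 in Cenpf, 7 in Ttk (minus strand), 32 in Aurka and 4 in Ccnb2, which has a further match at -167. Each of these windows has CCAAT upstream of that match, and the Nuf2 window has neither set of letters. The 32 members with TTTGAA in a window had a median log2 ratio of -0.55 at 3 h and -0.51 at 6 h, and the 11 without it -0.38 and -0.55. For CCAAT the 33 members with it were at -0.54 and -0.52, and the 10 without it at -0.55 and -0.53. A match of letters is a description and does not show that a factor bound there.

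**Figure D2:**
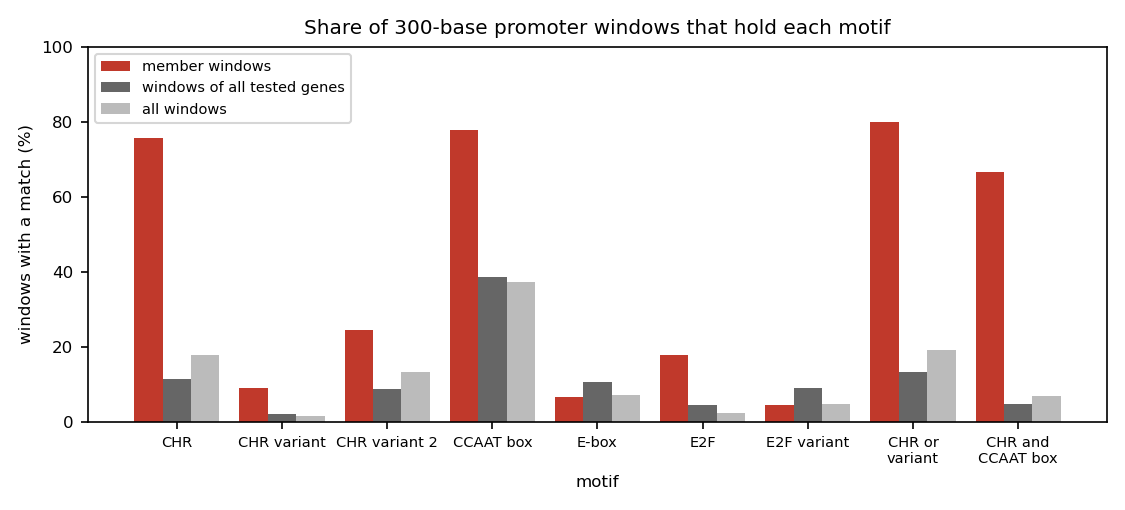
Percent of 300-base promoter windows with at least 1 match to each motif on either strand, for 45 windows of members (red), 9395 windows of tested genes (dark grey) and all 32851 windows (light grey). The CHR and the CCAAT box stand at 75.6% and 77.8% of member windows, against 11.5% and 38.6% of windows of tested genes.

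The cyclins, CDK1 and the CDC25 phosphatases set the entry into mitosis. Ccna2, the gene of cyclin A2 (mm9 chromosome 3, 36451528 to 36470918, a locus the table shares with Exosc9), was the lowest of these at 3 h. Its FPKM at 3 h was 279 in PBS, 273 in Omomyc, 275 in FPP-1746 and 137 in the fusion, and at 6 h 330.2, 349, 318 and 173. The fusion was thus near 49.0% of PBS at 3 h and 52.4% at 6 h, with log2 ratios of -1.03 and -0.93. Ccnb2, the gene of cyclin B2, had no such difference at 3 h, with 78.8 FPKM in PBS, 74.3 in Omomyc, 74.9 in FPP-1746 and 77.3 in the fusion. At 6 h it stood at 66.2, 64.1, 57.2 and 33.3 FPKM, a log2 ratio of -0.97. Its close relative Ccnb1, which encodes cyclin B1, was at 38.6 FPKM in PBS and 23.4 in the fusion at 3 h, and at 39.4 and 28.0 at 6 h. The cyclin B genes differed in timing, Ccnb1 the lower at 3 h (-0.70 against -0.028) and Ccnb2 at 6 h (-0.97 against -0.48). Cdk1, their kinase partner, was at -0.42 and -0.57. The phosphatase genes Cdc25b and Cdc25c, whose products activate CDK1, were at -0.37 and -0.41 at 3 h and at -0.68 and -0.72 at 6 h. Of the 6 genes of this role 2 passed 1.5-fold as lower at 3 h, beside 14.5% of tested genes, and 4 at 6 h, beside 15.2%.

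Among the other mitotic kinases, Plk1 (mm9 chromosome 7, 129302951 to 129313389), which drives centrosome maturation and mitotic exit, fell the most. It was at 53.2 FPKM in PBS, 52.1 in Omomyc, 52.7 in FPP-1746 and 22.8 in the fusion at 3 h, a log2 ratio of -1.19. At 6 h the columns read 75.7, 76.0, 72.3 and 44.4 FPKM, a ratio of -0.76. At both times the fusion was well apart from 3 columns that nearly coincided. Aurka, whose product Aurora A organises spindle poles, had 78.4, 79.2, 79.8 and 41.0 FPKM in the same order at 3 h and 97.4, 98.1, 95.9 and 104 FPKM at 6 h. It stood at 52.2% of PBS at 3 h and 107% at 6 h. The centriole duplication kinase gene Plk4 (-0.30 and -0.37) and the centrosome kinase gene Nek2 (-0.31 and -0.28) were below 1.5-fold at both times.

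The chromosomal passenger complex, made of Aurora B, survivin, INCENP and borealin, corrects wrong attachments and steers cytokinesis. All 4 of its genes passed 1.5-fold as lower at 3 h and 2 at 6 h, where 14.5% and 15.2% of tested genes did. Aurkb, the kinase subunit, was at 46.1 FPKM in PBS, 44.7 in Omomyc, 44.7 in FPP-1746 and 26.2 in the fusion at 3 h, and at 59.0, 60.7, 57.7 and 35.7 at 6 h. Birc5, which encodes survivin (mm9 chromosome 11, 117710551 to 117717057), was at 225, 232, 231 and 149 FPKM at 3 h and at 248, 236, 229.8 and 107 FPKM at 6 h. Its log2 ratio went from -0.59 to -1.21, the lowest of all members at 6 h, and its FPKM in the fusion was lower at 6 h than at 3 h while that in PBS was higher. The scaffold gene Incenp and the borealin gene Cdca8 went the other way, from -0.66 to -0.15 and from -0.73 to -0.31. The 4 subunits of this complex were thus alike at 3 h, between -0.79 and -0.59, and spread from -1.21 to -0.15 at 6 h.

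The spindle checkpoint genes also split by time. Ttk, the MPS1 kinase that starts the checkpoint (mm9 chromosome 9, 83728296 to 83765997), was at 20.7 FPKM in PBS, 20.4 in Omomyc, 20.2 in FPP-1746 and 9.18 in the fusion at 3 h, a log2 ratio of -1.09. At 6 h it was at 26.0, 27.6, 26.3 and 21.4, a ratio of -0.27. Bub1, the kinase that recruits further checkpoint proteins, ran in the opposite order, at -0.28 at 3 h and -0.73 at 6 h. Bub1b (BUBR1) was at -0.61 and -0.50 and Mad2l1, which restrains CDC20, at -0.38 and -0.42. Of the genes for anaphase onset, Cdc20, the activator of the anaphase-promoting complex, stood at 154, 146, 139 and 93.7 FPKM at 3 h and at 188, 174, 167 and 125 FPKM at 6 h, in the order PBS, Omomyc, FPP-1746 and fusion. Its columns without the fusion were further apart than those of Plk1, yet the fusion stayed below all of them. The separase gene Espl1 was at -0.67 and -0.72, and the ubiquitin-conjugating enzyme gene Ube2c, the most abundant member at 286 FPKM in PBS at 3 h, at -0.27 and -0.62.

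**Figure D3:**
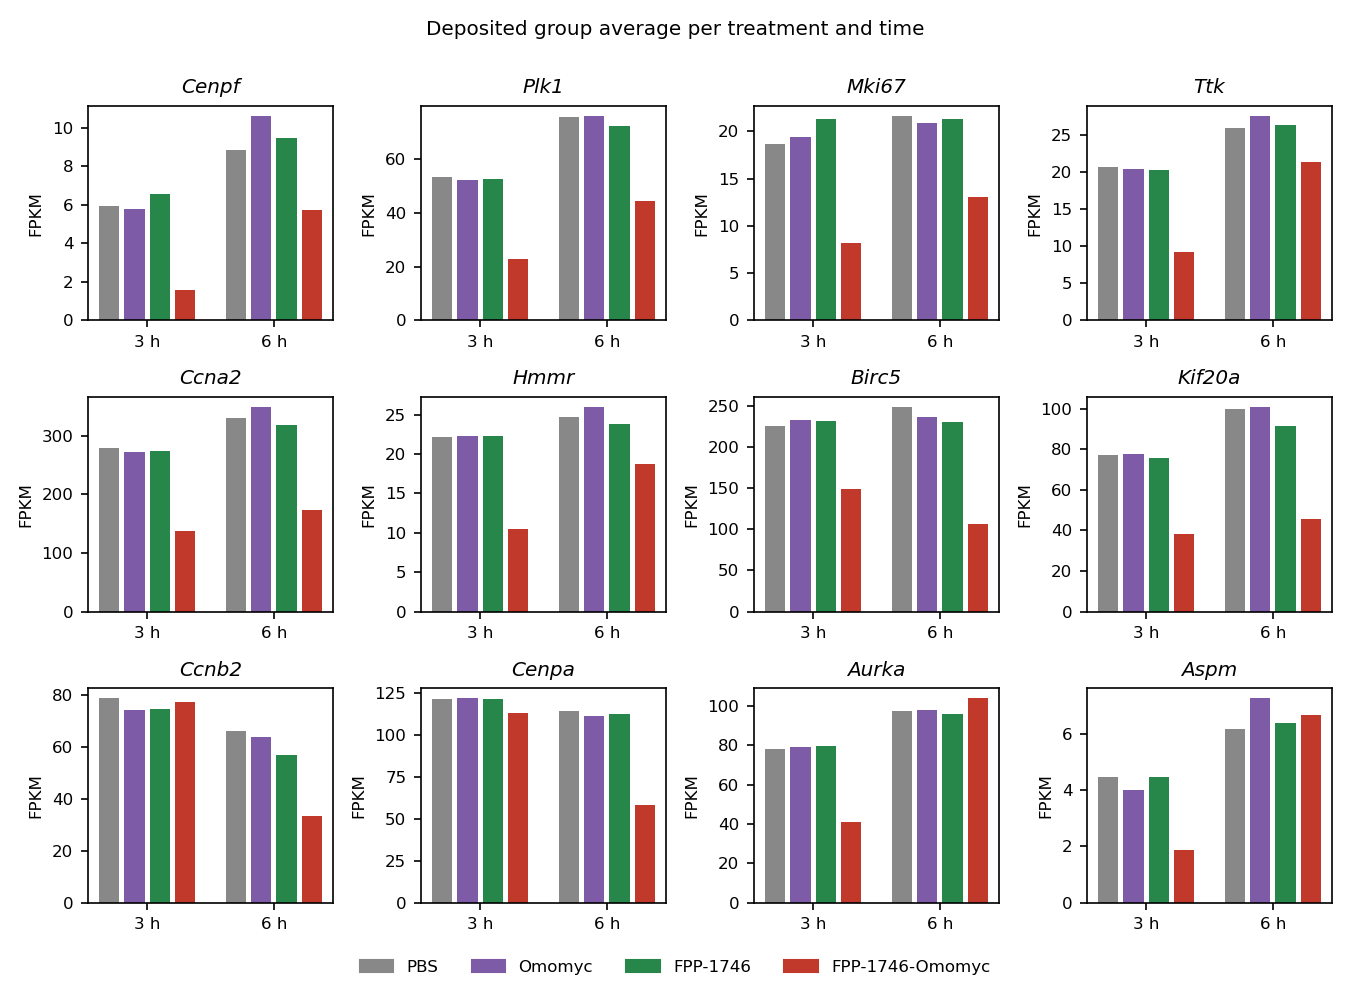
Deposited FPKM of 12 of the genes, each bar being the mean deposited for 1 of the 8 groups, in the order PBS (grey), Omomyc (purple), FPP-1746 (green) and the fusion (red) at 3 h and at 6 h; no error bars can be drawn. Ccnb2 and Cenpa are level at 3 h and low in the fusion at 6 h (33.3 and 58.5 FPKM), while Aurka and Aspm are low at 3 h (41.0 and 1.89 FPKM) and near PBS at 6 h.

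Centromere and kinetochore genes held the lowest ratio of all members. Cenpf, which encodes a large outer kinetochore protein of G2 and mitosis (mm9 chromosome 1, 191464493 to 191511965), was at 5.95 FPKM in PBS, 5.79 in Omomyc, 6.54 in FPP-1746 and 1.58 in the fusion at 3 h. That is 26.5% of PBS and a log2 ratio of -1.43. At 6 h it was at 8.87, 10.6, 9.50 and 5.73 FPKM, a ratio of -0.55, and the columns without the fusion were at their widest among the members here. Cenpe, the kinetochore kinesin gene, was at -0.81 and -0.55. Cenpa, the centromeric histone H3 variant, was nearly level at 3 h, with 121, 122, 122 and 113 FPKM, and stood at 114, 111, 113 and 58.5 FPKM at 6 h, a ratio of -0.95. Ndc80 and Nuf2 encode partners in 1 microtubule-binding complex and differed in ratio. Nuf2 was at -0.93 at 3 h and -0.91 at 6 h, and Ndc80 at -0.52 and -0.15.

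Kinesin motor genes stood below PBS in all 6 cases at 3 h and in 5 at 6 h, beside 49.5% and 51.7% of tested genes. Past 1.5-fold as lower were 3 at each time, beside 14.5% and 15.2%. Kif2c, the microtubule depolymerase MCAK, was the lowest at 3 h, at 23.2 FPKM in PBS, 22.3 in Omomyc, 22.6 in FPP-1746 and 11.1 in the fusion. Its log2 ratio of -0.998 fell just short of 2-fold in FPKM + 1, while its FPKM alone was 47.9% of PBS. At 6 h it was at -0.63, with 35.6, 36.5, 34.5 and 22.6 FPKM. Kif11, the motor that pushes spindle poles apart, was at -0.79 and -0.67, and Kif15, which backs it up, at -0.70 and -0.77. Kif4, the chromokinesin that stays with chromosome arms, was at -0.43 and -0.20. Kif22, also a chromosome arm motor, was at -0.20 and -0.39. Kif18b, which shortens astral microtubules, was at 18.1, 18.1, 17.6 and 13.7 FPKM at 3 h and at 27.2, 29.4, 28.5 and 31.1 FPKM at 6 h, the highest ratio of any member at 6 h (0.19).

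Of 6 spindle assembly genes 5 passed 1.5-fold as lower at 3 h, beside 14.5% of tested genes, with a median of -0.91. At 6 h Nusap1 alone passed, beside 15.2% of tested genes, and the median was -0.29. Hmmr, a spindle pole protein gene (mm9 chromosome 11, 40514890 to 40546939), was at 22.1 FPKM in PBS, 22.3 in Omomyc, 22.3 in FPP-1746 and 10.5 in the fusion at 3 h, a ratio of -1.01. At 6 h the columns were at 24.7, 26.0, 23.8 and 18.8 FPKM, a ratio of -0.38. Aspm, which focuses spindle poles, was at 4.45, 4.0, 4.46 and 1.89 FPKM at 3 h and at 6.17, 7.25, 6.38 and 6.68 FPKM at 6 h. It was at 42.4% of PBS at 3 h, inside the range of the other columns at 6 h, and its log2 ratios were -0.92 and 0.099. Dlgap5 (HURP), a microtubule stabiliser, was at -0.95 and -0.35. Tpx2, which activates Aurora A on the spindle, was at -0.80 and -0.18. Nusap1, whose product bundles microtubules and whose row shares a locus with Oip5, was at -0.91 and -0.69. Spag5 (astrin) was at -0.22 and -0.24.

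Cytokinesis genes ranged the widest at 6 h. Kif20a, the MKLP2 motor that carries the passenger complex to the midzone (mm9 chromosome 18, 34758269 to 34811390, a locus shared with Brd8 and Cdc23), was at 77.2 FPKM in PBS, 77.7 in Omomyc, 75.6 in FPP-1746 and 38.3 in the fusion at 3 h. At 6 h it was at 99.8, 101, 91.6 and 45.6 FPKM, and its ratios were -0.993 and -1.11. Prc1, which bundles midzone microtubules, was at 76.3, 79.9, 76.0 and 55.7 FPKM at 3 h and at 74.7, 76.8, 73.7 and 76.3 FPKM at 6 h. The fusion was thus below the other columns of Prc1 at 3 h and among them at 6 h. The contractile ring gene Anln was similar, at -0.47 and -0.058. Kif23 and Racgap1 encode the partners of the centralspindlin complex and kept their ratios, at -0.54 and -0.60 and at -0.43 and -0.52. Ect2, the RhoA activator that centralspindlin recruits, was at -0.084 and -0.11.

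In the chromosome structure genes the order again changed between the times. Mki67, the proliferation marker that coats mitotic chromosomes (mm9 chromosome 7, 142881471 to 142908062), was at 18.7 FPKM in PBS, 19.4 in Omomyc, 21.3 in FPP-1746 and 8.16 in the fusion at 3 h, a ratio of -1.10. At 6 h it was at 21.6, 20.9, 21.3 and 13.0 FPKM, a ratio of -0.69. Top2a, the topoisomerase that untangles sister chromatids, went from -0.59 to -0.98, with 151 FPKM in PBS and 76.0 in the fusion at 6 h. The 5 condensin genes were closer to PBS at 3 h. Smc4 was at -0.26, Ncapd2 at -0.22, Ncapg at -0.38 and Smc2 at -0.56. Ncaph had the ratio nearest to 0 of all members, with 25.2, 26.6, 25.1 and 24.99 FPKM at 3 h and 34.3, 34.7, 31.7 and 26.8 FPKM at 6 h. At 6 h Smc4 (-0.77) and Ncapd2 (-0.59) passed 1.5-fold, and Ncaph (-0.35), Ncapg (-0.27) and Smc2 (-0.17) did not. Smc2 and Smc4 are the paired ATPases of the same complex, and the former was the lower at 3 h and the latter at 6 h.

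Sorted by the 1.5-fold rule, 13 members were lower at both times, where 3.47% of tested genes were. They were Ccna2, Plk1, Aurkb, Birc5, Espl1, Nuf2, Kif2c, Kif11, Kif15, Nusap1, Kif20a, Top2a and Mki67. A further 13 were lower at 3 h only, against 11.1% of tested genes, with a median ratio of -0.81 at 3 h and -0.35 at 6 h. They were Ccnb1, Incenp, Cdca8, Ttk, Bub1b, Cdc20, Cenpe, Cenpf, and the spindle pole and assembly genes Aurka, Tpx2, Hmmr, Aspm and Dlgap5. Lower at 6 h only were 9 members, against 11.8% of tested genes: Ccnb2, Cdc25b, Cdc25c, Bub1, Ube2c, Cenpa, Kif23, Ncapd2 and Smc4, with medians of -0.27 and -0.72. The other 16 passed at neither time. Some of these labels rest on values close to the 1.5-fold line. Just short of it were, among others, Cdc20 (-0.582) and Cdk1 (-0.568) at 6 h and Smc2 (-0.562) and Kif23 (-0.544) at 3 h. Birc5 (-0.591) and Top2a (-0.590) at 3 h and Ncapd2 (-0.593) at 6 h passed it narrowly. Just inside the 2-fold rule at 3 h were Hmmr at -1.01 and Ccna2 at -1.03, and just outside were Kif2c at -0.998 and Kif20a at -0.993. Without the added 1, the FPKM of Kif2c and Kif20a stood at 47.9% and 49.6% of PBS. Over the 51 members the ratio at 3 h and at 6 h had a Pearson r of 0.1 and a Spearman rho of 0.095, against 0.437 and 0.378 over the 10262 tested genes, as a description across genes, which are not replicates and share these columns. The ratio was higher at 6 h than at 3 h in 29 of 51 members, beside 48.1% of tested genes, and no test of that change could be run.

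**Figure D4:**
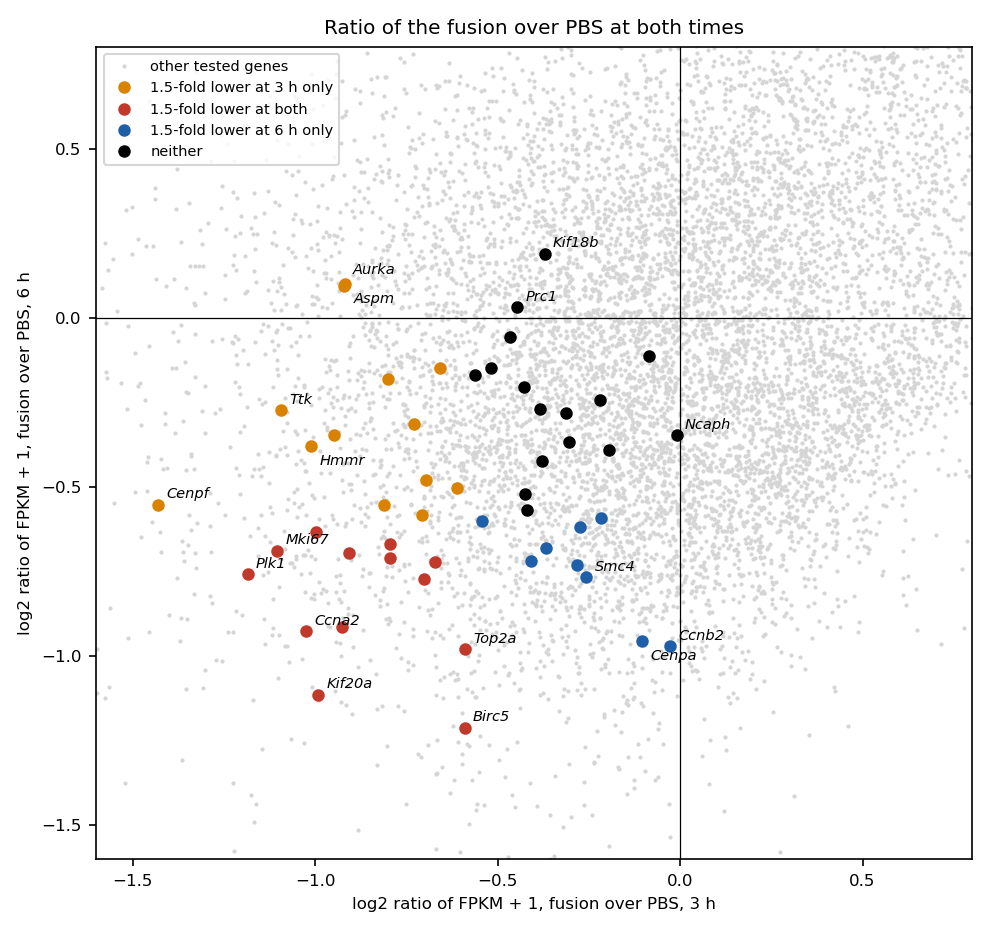
Log2 ratio of FPKM + 1 of the fusion over PBS at 3 h (x axis) and at 6 h (y axis) for the 51 genes, coloured by where they passed 1.5-fold as lower, over the other tested genes (grey, axes limited to -1.6 to 0.8). Cenpf lies farthest left (-1.43), Birc5 lowest (-1.21), and Aurka, Aspm, Prc1 and Kif18b lie above 0 at 6 h.

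The fusion columns themselves moved between the times more than the columns without the fusion. In the fusion 6 members were at least 2-fold higher at 6 h than at 3 h, against 7.27% of tested genes. They were Aspm (log2 ratio 1.41), Cenpf (1.39), Aurka (1.32), Ttk (1.13), Kif18b (1.13) and Dlgap5 (1.10). Ccnb2 alone was lower (-1.19), against 4.92% of tested genes. At 1.5-fold, 14 members were higher and 2 lower in the fusion, where 1823 and 2077 of the 10262 tested genes were. In Omomyc 6 members were higher and in FPP-1746 2, where 377 and 332 tested genes were. No member was lower by that rule in either, where 322 and 296 tested genes were. In PBS, 43 of 51 members were higher at 6 h than at 3 h with a median of 0.16, and 8 were lower, beside 51.7% of tested genes. Kif2c (0.60) alone passed 1.5-fold as higher, against 2.11% of tested genes. No member was lower by that rule in PBS, against 1.86%.

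Differences with either part of the fusion alone, at the same dose, were under 1.5-fold for every member. FPP-1746 over PBS had a median of -0.0019 at 3 h, between -0.14 and 0.18, and of -0.048 at 6 h, between -0.21 and 0.089. Omomyc over PBS had a median of 0.014 at 3 h, between -0.12 and 0.16, and of 0.039 at 6 h, between -0.11 and 0.24. Small differences leaned to one side at 6 h. FPP-1746 stood below PBS in 28 members at 3 h and 40 at 6 h, beside 46.9% and 47.3% of tested genes, and Omomyc in 19 and 12, beside 44.7% and 48.9%. FPP-1746 stood below Omomyc in 32 members at 3 h and 47 at 6 h, beside 51.8% and 47.6% of tested genes, with medians of -0.013 and -0.088. These counts share columns, and no test of them could be run. The shares of tested genes past 1.5-fold were 0.39% lower and 0.546% higher for FPP-1746 at 3 h and 0.565% and 0.341% at 6 h. For Omomyc they were 0.507% and 0.468% at 3 h and 0.458% and 0.477% at 6 h. Against FPP-1746 the fusion had a median of -0.61 at 3 h with 6 members past 2-fold as lower, where 4.01% of tested genes were. At 6 h the median was -0.48 with Birc5 alone, a count near the 3.21% of tested genes. Against Omomyc the median was -0.63 at 3 h with 7 members lower, where 3.76% were, and -0.62 at 6 h with 4 lower (Ccna2, Birc5, Kif20a and Top2a), where 3.07% were. Higher calls were absent among the members in these 4 comparisons, beside 5.86% and 6.94% of tested genes against FPP-1746 and 5.56% and 6.59% against Omomyc. All of these share the fusion column of their time.

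Other genes of the same pathway were read from lists that do not hold the members. Of 78 further mitotic and cytokinesis genes, all tested, 56 stood below PBS at 3 h with a median of -0.32. Below PBS were 49.5% of tested genes. Past 2-fold 10 of the 78 fell and none rose, beside 4.42% and 6.13% of tested genes. The lowest were Ckap2l (-1.33), Nde1 (-1.30), the haspin kinase gene Gsg2 (-1.22) and Troap (-1.15). At 6 h 55 stood below PBS, beside 51.7% of tested genes, with a median of -0.19. At that time 6 fell and 1 rose, beside 3.34% and 7.13% of tested genes. Cdca3 (-1.56), a trigger of mitotic entry, and the kinetochore gene Spc24 (-1.23) were the lowest, followed by Sapcd2 (-1.17, under an older symbol in the table) and Iqgap3 (-1.07), and the CENP-A chaperone gene Hjurp rose (1.05). At 3 h Spc24 was at 0.35 and Cdca3 at -0.20, and Ckap2l, Nde1 and Gsg2 were at -0.18, -0.20 and -0.055 at 6 h. These genes were named for their value at one time, so their value at the other is given only as a description.

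Among 16 regulators of these promoters the median was -0.17 at 3 h and -0.29 at 6 h. Of them 1 fell and 2 rose past 2-fold at 3 h, and 2 fell and 1 rose at 6 h. The shares of tested genes were 4.42% lower and 6.13% higher at 3 h, and 3.34% and 7.13% at 6 h, and they hold for the lists that follow too. Foxm1, which activates G2 genes, was at 41.8 FPKM in PBS and 26.0 in the fusion at 3 h (-0.66) and at 44.5 and 29.3 at 6 h (-0.59). Mybl2, which encodes B-MYB, was at 20.1 and 10.2 FPKM at 3 h (-0.91) and at 23.2 and 14.9 at 6 h (-0.61). Neither passed 2-fold. Tfdp1, the DNA-binding partner of E2F proteins, fell at both times (-1.07 and -1.25), and the atypical repressor gene E2f8 fell at 6 h (-1.27). Cdkn1a, the gene of the CDK inhibitor p21, rose at both times (2.91 and 2.72), and the MuvB subunit gene Lin54 rose at 3 h (1.03, with 0.16 at 6 h). Of 17 genes of the anaphase-promoting complex and its cofactors Fbxo5, an inhibitor of the complex, alone fell at 3 h (-1.05), and none passed at 6 h, counts near the 4.42% and 3.34% of tested genes. The medians were -0.20 and -0.30. None of 14 cohesin genes passed, again beside 4.42% and 3.34%, with medians of 0.089 and 0.12. Of 31 S phase genes 1 fell at 3 h, near the 4.42% of tested genes, and 5 at 6 h, beside 3.34%, with medians of -0.17 and -0.38. They were Mcm10 at 3 h (-1.16) and Ccne1 (-2.02), Tk1 (-1.98), Rrm2 (-1.63), Gins2 (-1.25) and Prim1 at 6 h.

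**Figure D5:**
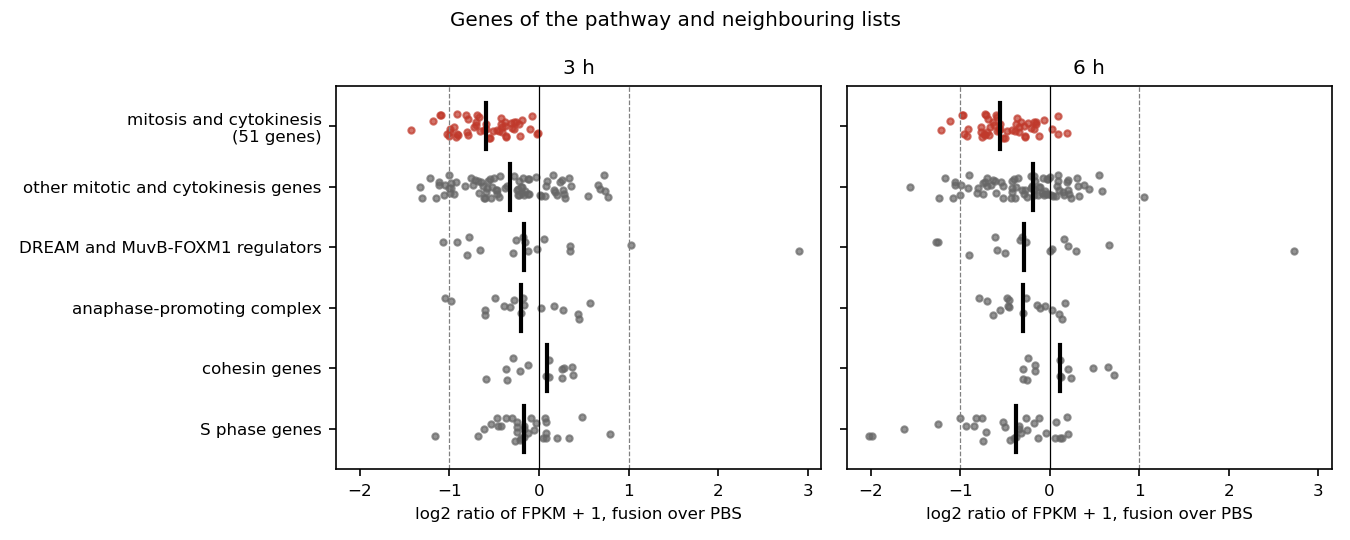
Log2 ratio of FPKM + 1 of the fusion over PBS for each gene (points, spread vertically for view only) and the median (black bar) of the 51 genes and of 5 other lists, at 3 h and 6 h; dashed lines mark 2-fold. The 51 genes have the lowest median at both times (-0.59 and -0.55), and cohesin genes lie around 0. All lists were chosen with earlier results of these data known, so their order is only a description.

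Position and length were looked at as traits that the member list did not use. The members lie on 17 chromosomes, 8 of them on chromosome 2, and 7 have a locus that the table shares with another gene. These 7 are Ccna2, Nusap1, Kif20a, Cdc20, Ncapg, Ncapd2 and Smc4, whose rows may share reads with that gene. Across the 51 members, the ratio at 3 h had a Spearman rho of -0.155 with the length of the longest coding transcript and that at 6 h of 0.115. Over 8980 tested genes these were -0.107 and 0.214. Pearson's r was -0.28 and 0.126 for the members on log2 length, against -0.089 and 0.177. With the span of the gene in the 44 members that share no locus, rho was -0.289 at 3 h and 0.26 at 6 h, against -0.037 and 0.089 over 8421 tested genes. All of these are descriptions across genes, which share the same columns. Genes lower at 6 h only had a median transcript of 3089 bases, and those lower at 3 h only of 3668, ranges of 1466 to 4629 and 1626 to 11130 that overlap.

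The T11 label was checked against markers. All 8 mesenchymal markers were present, with a summed level between 3596 and 5526 FPKM per column. Most of that sum is Vim, at 3302 FPKM in the fusion at 6 h, the column with the lowest sum, and 3673 in PBS at 6 h. Other markers went the other way at 6 h, among them Zeb2, at 19.8 FPKM in the fusion and 8.88 in PBS, Snai2, at 13.4 and 5.63, and Twist1, at 40.4 and 23.8. Cdh2, at 14.8 and 20.0, and Snai1, at 23.2 and 24.5, were lower in the fusion like Vim. At 3 h Vim was higher in the fusion, at 5128 FPKM against 3693 in PBS. None of 11 epithelial and claudin markers reached 1 FPKM on average, their sum was between 0.214 and 0.612 FPKM, and Epcam, Cldn3, Krt18 and Krt5 were listed at 0 in every column. Of 7 leukocyte markers Cd14 and Cd68 were present, and their list summed to between 11.2 and 25.8 FPKM in the columns without the fusion and to 80.9 and 121 FPKM in the fusion at 3 h and 6 h. Emr1 and Cd3e were listed at 0 everywhere, and Ptprc stayed at or below 0.0256 FPKM and Csf1r at or below 0.0523. The endothelial list summed to between 0.072 and 0.177 FPKM and the adipocyte list to between 1.67 and 2.76. Cd14 alone stood at 77.4 FPKM with the fusion for 3 h and 118 FPKM for 6 h, against 10.1 and 12.9 with PBS. Summed over all rows, the columns held from 445657 (fusion, 6 h) to 594951 FPKM (fusion, 3 h). The part of these differences in the member ratios was not tested. Member medians under quantile normalisation of the columns are given in the last section.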

How the data were processed

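RNA-seq of 24 samples in 8 groups was deposited by the authors as 1 table of FPKM with 1 column per group, per the file headers, and the table's own name calls the values averages. In the submitters' processing notes, the build is mm9 and the tools are Cufflinks 2.2.1, Cuffnorm 2.2.1, STAR 2.1.3 and bcl2fastq 2.17.1.14. Their settings, the library scaling and the use of strand were not given in the sources used here, and genes that share a locus or overlap may share reads. Replicate values were not used here, so no statistical test was possible and none was run.

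Log2 ratios of FPKM + 1 were taken with Python 3.11.15 and pandas 2.3.3, which understates the change of low genes. The 10262 rows that averaged 1 FPKM or more across all 8 columns were compared (the tested genes), and called at 2-fold. Depth per sample is not stated. The worth of 1 fragment was set from 797 genes with 1 transcript of at least 3000 bases. It was the median FPKM × bases of the 29 to 48 genes that fell between 10 and 40. That gave 22.6 to 29.2, which the chosen range itself confines, and columns are means. It is therefore no measure of depth. Taken at face value, the fewest fragments behind a member value were 600.3, for Cenpf in the fusion at 3 h.

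Starts were shifted to count from 1: of 20652 rows found in RefSeq, spans equalled those of RefSeq for 7165 with a count from 0 and for 456 with a count from 1. Transcript lengths are from GENCODE M21 and promoter windows from RefSeq GRCm38.p6, whose coordinates were not mixed with those in mm9. All list genes were matched, 7 of them through RefSeq synonyms. Members and lists were chosen with earlier results of these data known. Described in full were members past 2-fold, those with the 2 lowest and 2 highest ratios at each time and the lowest at 3 h of each role, and of other lists up to 4 genes past 2-fold per time, Foxm1, Mybl2 and Cdkn1a. Others were named for their role or after their values were seen.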

Additional observations from a re-analysis of the deposited data

Results flagged for a closer look

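For 4 members the ratio of the fusion over PBS had opposite signs at 3 h and at 6 h, with 1 averaged column per group, and no test of the change between times could be run, so it was not tested. Aurka was at -0.92 at 3 h and 0.092 at 6 h, Aspm at -0.92 and 0.099, Prc1 at -0.45 and 0.030, and Kif18b at -0.37 and 0.19. No value at 6 h passed 1.5-fold, and Aspm turned to -0.010 at 6 h under quantile normalisation.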

How the results depend on the processing

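No paired analysis was possible because the columns are group averages that carry no replicate number, and no replicate could be left out for the same reason. With pseudocount 0.1, 10 members were lower past 2-fold at 3 h, beside 6.86% of tested genes. With pseudocount 5, 2 were (Ccna2 and Plk1), beside 1.5%, against 6 and 4.42% with pseudocount 1. A 1.5-fold rule gave 26 at 3 h and 22 at 6 h, beside 14.5% and 15.2% of tested genes. The 2-fold rule gave 6 and 2, beside 4.42% and 3.34%, and the count at 6 h is near that share. The median ratio was -0.49 at 3 h and -0.47 at 6 h with pseudocount 5, and -0.67 and -0.46 under quantile normalisation. Median scaling, no filter on low values and the mean of the 3 other columns as reference moved these medians and counts by less. Over all settings Ccna2 and Plk1 at 3 h and Birc5 and Kif20a at 6 h stayed past 2-fold. The ratio stayed below 0 for 50 members at 3 h, all but Ccnb2, and for 46 at 6 h, and changed sign at 6 h for Anln and Aspm. The share of higher among all calls at 3 h was 58.1%. It was 71.2% with pseudocount 5, 51.9% with pseudocount 0.1 and 51.9% at 1.5-fold. At 6 h it was 68.1%, and 70.6%, 64.6% and 53.3% under these settings. The fragment estimate, 600.3 at its lowest, depends on the range chosen for it and gives no measured floor. The spread between replicates is not known for any value.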
